A study of Sus scrofa with 60 samples.

Results

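The genes described are 9 transcription factors that build and maintain the hepatocyte gene programme: HNF4A, NR5A2, FOXA1, FOXA2, FOXA3, CEBPA, CEBPB, ONECUT1 and PROX1. They were chosen by symbol from the count table, where each of the 9 was found once among 30335 named genes. The livers came from neonatal pigs of both sexes, delivered by caesarean section shortly before term, which had surgery on day 1 of life and were then kept for 14 days on 1 of 3 diets. The enteral diet was not purely enteral, since its pigs, like the others, began on parenteral nutrition before formula took its place. Surgery was either a sham operation or bile duct ligation (BDL), the tying of the cystic and common bile ducts so that bile cannot leave the liver. The diets were enteral milk formula (ENT), parenteral nutrition with a soy oil emulsion (SLE, Intralipid) and parenteral nutrition with a mixed oil emulsion that contains fish oil (MLE, SMOFlipid).

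There are 60 liver poly-A RNA libraries labelled by pig, of which 2 in SLE-sham share a pig code, and each library is counted here as 1 pig. All pigs had jugular catheters. Of the sham pigs 12 were on ENT, 10 on SLE and 9 on MLE, and of the ligated pigs 10 were on ENT, 11 on SLE and 8 on MLE. ENT pigs differ from the parenteral groups in route as well as in lipid and had some parenteral nutrition themselves, so these cannot be told apart in a contrast with ENT. Summed counts per library ran from 14469788 to 21374161, with a median of 17254606, and the least covered of the 9 genes, FOXA2, still had 263 to 960 counts per pig. All 9 passed the filter on low counts that left 16210 genes to test. The tissue label matched the most abundant markers: 14 hepatocyte markers, led by ALB, summed to group means of 126900 to 187900 CPM (TMM-scaled counts-per-million), and none of them was at 0 in any pig.

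One pair of libraries stands apart from the rest and bears on the ENT contrasts. ENT-sham replicate 2 and ENT-BDL replicate 1 had count profiles that differed by a chi-square of 1.97 per degree of freedom over 13774 genes, where the next closest of 1770 pairs was at 17.5 and the median pair at 94.3. Both had cholangiocyte markers at a BDL-like level, with 12 of these summing to 783 and 771 CPM. The other 11 ENT-sham pigs had 111 to 238 CPM and the other 9 ENT-BDL pigs 411 to 796 CPM. Hepatocyte markers (102000 CPM in both) and Kupffer cell markers (1390 and 1430 CPM) lay below all those 9 ENT-BDL pigs (lowest 125000 and 1500 CPM). Stellate cell markers (3490 and 3500 CPM) lay above those 9 (highest 3150 CPM). Neither library was left out of the values given below. Without both, every member called in the contrast of ENT-BDL with ENT-sham was still called, while some other results, counts over gene lists among them, did change. Whether the pair comes from 1 liver was not tested.

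As background, a differentiated hepatocyte is held in its state by a small set of factors that bind each other's genes and the same enhancers. The FOXA proteins are forkhead pioneer factors that can bind closed chromatin, HNF4A and NR5A2 are nuclear receptors, CEBPA and CEBPB are basic leucine zipper proteins, ONECUT1 (HNF6) is a cut-homeodomain protein, and PROX1 is a divergent homeodomain protein. Several of them act in bile acid synthesis, glucose production or the choice between hepatocyte and bile duct cell, which makes their levels of interest when bile flow is blocked or feeding bypasses the gut.

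Compared per length as TPM (counts per kilobase of gene length, as a share of all such counts in the pig and not TMM-scaled, averaged over 60 pigs with the SD), CEBPB had the highest level of the 9 at 231 ± 74.1. HNF4A followed at 133 ± 19.6, CEBPA at 84.3 ± 24.9 and FOXA3 at 75.3 ± 24.5. ONECUT1 was at 43.7 ± 8.43 TPM, PROX1 at 26.9 ± 6.61, NR5A2 at 23.7 ± 2.99, FOXA2 at 22.5 ± 4.70 and FOXA1 at 15.6 ± 2.99. CEBPB exceeded HNF4A in 59 of 60 pigs, but its gene model is a single exon that holds only the coding length, so its place in this order depends on that length. Among 1204 genes with a transcription factor family in the table, CEBPB ranked 5 and HNF4A ranked 9 by mean TPM, while FOXA1 ranked 203. Over the 60 pigs PROX1, NR5A2 and FOXA2 had neighbouring levels that did not differ by more than the larger SD of each pair, nor did CEBPA and FOXA3.

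The order was not the same on all diets. In ENT-sham pigs FOXA3 was above ONECUT1 in 5 of 12 animals, with mean TPM of 57.1 ± 25.5 and 49.4 ± 8.93. In ENT-BDL pigs ONECUT1 was the higher of the pair in 8 of 10 animals. In each of the 4 parenteral groups FOXA3 was above ONECUT1 in every pig, and the ranges of the pair did not overlap. In SLE-sham livers, for example, FOXA3 was at 91.3 ± 12.7 TPM (n = 10) and ONECUT1 at 42.2 ± 6.81. FOXA3 and CEBPA were within 1 SD of each other in all 4 parenteral groups.

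The 9 genes lie on 6 chromosomes of the Sscrofa11.1 build, with 3 of them on chromosome 17: HNF4A at 46783772 to 46847505, FOXA2 at 29997397 to 30001704 and CEBPB at 51722633 to 51723673. FOXA3 is at 52181095 to 52188777 and CEBPA at 43083200 to 43085884 of chromosome 6, FOXA1 at 62471233 to 62479638 of chromosome 7, and ONECUT1 at 118913400 to 118958140 of chromosome 1. PROX1 is at 129527704 to 129583693 of chromosome 9 and NR5A2 at 22727865 to 22866905 of chromosome 10. HNF4A and PROX1 each overlap an unnamed gene on the opposite strand, and the counting is not stated to use strand. Reads in the shared part of such a pair cannot be told apart, and both members are uncertain. For HNF4A the partner LOC102159476 (46768005 to 46816635) had a mean of 38.2 CPM, equal to 12.7% of HNF4A. For PROX1 the partner LOC106507881 (129579544 to 129773144), which reaches 1 end of PROX1 only, had 84.4 CPM, equal to 60.8% of PROX1. These levels are of the whole partner, and the share from the overlap was not tested.

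**Figure D1:**
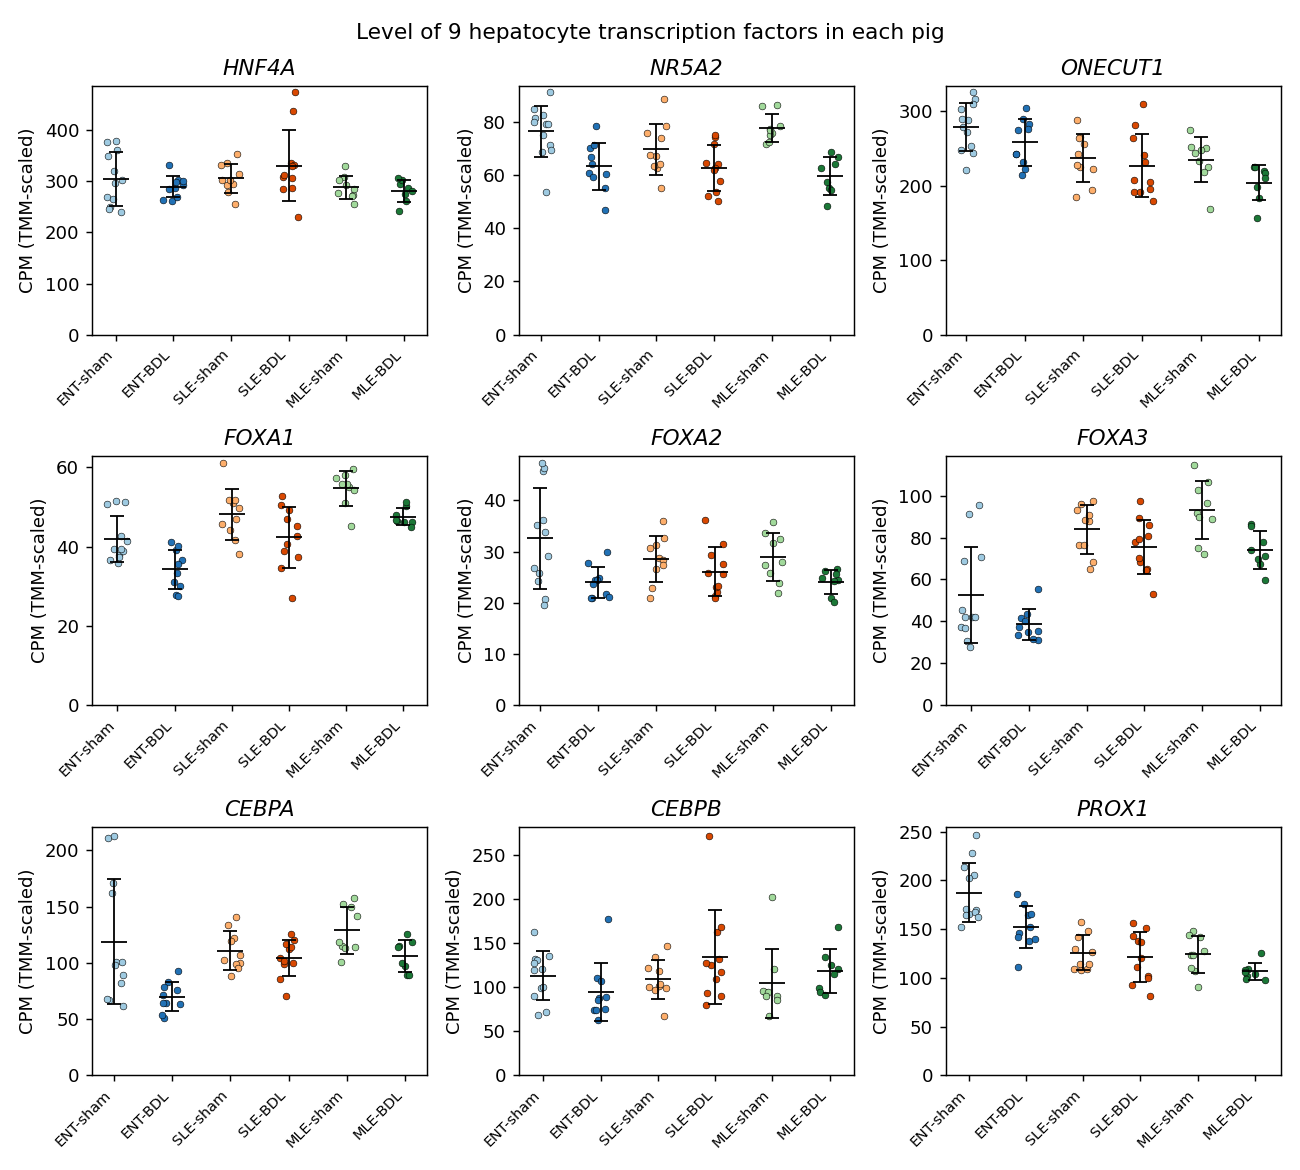
Each panel shows 1 gene: points are single pigs in TMM-scaled CPM (vertical axis, from 0), grouped by diet and surgery on the horizontal axis, and bars give the mean and SD of each group (n = 12, 10, 10, 11, 9 and 8 from left to right). FOXA3 is higher and PROX1 lower in the 4 parenteral groups than in ENT pigs, CEBPA is lowest in ENT-BDL pigs, and HNF4A has group means between 281 and 330.

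Differences between groups were tested for all 16210 genes with edgeR's quasi-likelihood test in 1 fit of all pigs, and a gene is called here at a Benjamini-Hochberg adjusted p under 0.05 whatever its fold change. Over 12 comparisons, 24 of 108 member tests were called and none of these exceeded a 2-fold difference in this fit. With a block for the identifier number in the pig labels, FOXA3 did so on MLE. Its log2 difference from ENT was then 1.08 in sham and 1.18 in ligated pigs. BDL against sham called 6 of 9 members on ENT, all lower, where 17.4% of all genes tested were called. On SLE it called 0 of 9 by edgeR and by DESeq2, with 1 member at an unadjusted p under 0.05, against 4.54% of all genes. On MLE it called 1 of 9, lower, against 14.4%. These 3 contrasts ask what blocked bile flow does to each factor on a given diet. Among 906 other genes with a transcription factor family, 15.7%, 4.64% and 12.5% were called on ENT, SLE and MLE, close to the shares of all genes.

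Parenteral against enteral feeding asks what the diet does at a given surgery, and it moved members in both directions. SLE-sham against ENT-sham called 1 member higher and 2 lower, where 27.5% of all genes were called, a share close to that of the members. MLE-sham against ENT-sham called 2 higher and 2 lower, against 21.1% of all genes. Among ligated pigs, SLE-BDL against ENT-BDL called 4 higher and 1 lower, against 19.6%. MLE-BDL against ENT-BDL called 3 higher and 2 lower, against 16.8%. The 2 contrasts within each surgery share their ENT pigs and are not independent.

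Between the 2 lipid emulsions no member was called. MLE-sham against SLE-sham called 0 of 9 by edgeR and 0 by DESeq2, with FOXA1 as the 1 member at an unadjusted p under 0.05, where 0.999% of all genes were called. MLE-BDL against SLE-BDL called 0 of 9 by both tools, with HNF4A as the 1 member at an unadjusted p under 0.05, where 0.907% of all genes were called. The 95% intervals leave room for differences: that of FOXA1 in the sham contrast ran from 0.00 to 0.36 on the log2 scale and that of HNF4A in the BDL contrast from −0.42 to −0.05.

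The interaction of surgery and diet, the test of whether BDL acts differently on 2 diets, called 0 of 9 members in each of 3 contrasts by edgeR. For SLE against ENT, 2 members had an unadjusted p under 0.05, DESeq2 called 1 (CEBPA), and 2.33% of all genes were called. For MLE against ENT, 1 member had an unadjusted p under 0.05, DESeq2 called 0, and 0.0617% of all genes were called. For MLE against SLE, 0 members had an unadjusted p under 0.05, DESeq2 called 0, and 0.265% of all genes were called. In this fit the members called after BDL on ENT and not on SLE or MLE are therefore not shown to respond differently there, and for CEBPA that depends on the setting.

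**Figure D2:**
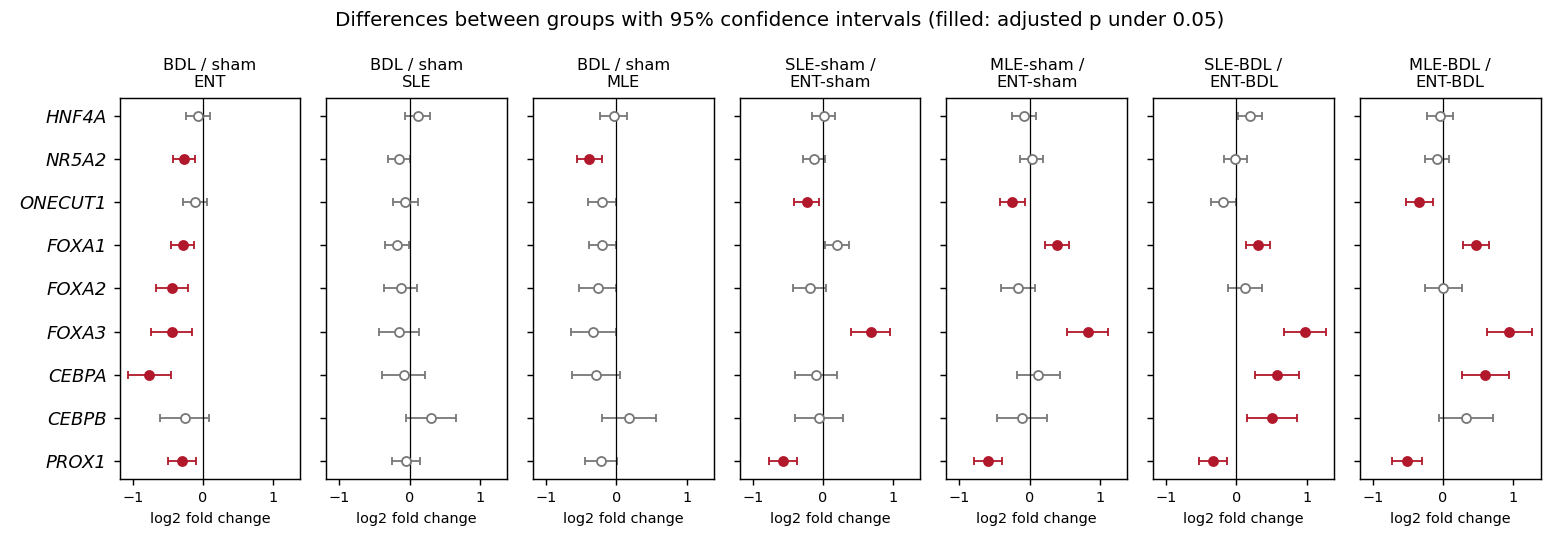
Each panel is 1 comparison: points give the log2 fold change of each gene (horizontal axis) and bars its 95% confidence interval, with filled red points for genes at an adjusted p under 0.05 and open grey points for the others. The 6 called genes of BDL against sham on ENT all lie below 0, and FOXA3 lies above 0 in all 4 contrasts of parenteral with enteral feeding.

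CEBPA, which drives genes of glucose and nitrogen metabolism and restrains hepatocyte proliferation, showed the greatest fall of the 9 after BDL on ENT. In ENT-sham livers it had a lowest value of 62.0, a median of 99.4 and a highest of 213 CPM, and in ENT-BDL livers these were 50.7, 68.1 and 92.5 CPM. All 10 ENT-BDL pigs were below the sham median, although the groups overlapped. The log2 fold change was −0.76 (SE 0.152, edgeR adjusted p = 0.000219), a 1.70-fold lower level. The ENT-sham pigs were not evenly spread: replicates 3, 4, 7 and 10 had 162 to 213 CPM and the other 8 had 62.0 to 101 CPM. Only the range of those 8 overlapped that of the ENT-BDL pigs, and the fall without the 4 high pigs was not tested. Of those 4 pigs, 3 carry an identifier number in their labels that 2 other ENT-sham pigs with lower CEBPA also carry.

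On parenteral nutrition CEBPA was not called after BDL. SLE-sham values had a lowest of 87.9, a median of 105 and a highest of 141 CPM, and SLE-BDL values 70.3, 104 and 125 CPM. MLE-sham values had a lowest of 101, a median of 118 and a highest of 157 CPM, and MLE-BDL values 88.9, 107 and 126 CPM. Neither parenteral sham group had pigs as high as the 4 in ENT-sham, and in both diets the sham and BDL ranges overlapped. Below every sham pig of their diet were 2 of 11 SLE-BDL and 4 of 8 MLE-BDL pigs. The log2 fold change was −0.08 on SLE (95% interval −0.39 to 0.22, edgeR adjusted p = 0.831). On MLE it was −0.29 (95% interval −0.63 to 0.06, edgeR adjusted p = 0.279), and it was called when edgeR was fitted on the MLE pigs alone (adjusted p = 0.0470, in a range of 0.0470 to 0.769 over the alternatives).

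Among ligated pigs, CEBPA was higher on both parenteral diets than on ENT. All 11 SLE-BDL pigs and all 8 MLE-BDL pigs were above the ENT-BDL median, and 9 and 6 of them were above every ENT-BDL pig. The log2 fold change was 0.58 for SLE (SE 0.154, edgeR adjusted p = 0.00488) and 0.60 for MLE (SE 0.166, edgeR adjusted p = 0.00781). Neither sham contrast called the gene. The interaction of surgery and diet for SLE against ENT was 0.68 on the log2 scale (SE 0.215) and missed the threshold at an edgeR adjusted p of 0.0774. It passed with DESeq2 (adjusted p = 0.0497), without the matching ENT libraries (edgeR adjusted p = 0.0323) and without ENT-sham replicate 2 alone (0.0227), and over all alternatives its adjusted p ran from 0.0227 to 0.200. For MLE against ENT the interaction was 0.48 (95% interval 0.02 to 0.93, edgeR adjusted p = 0.533).

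CEBPB, the family member known for its induction in the acute-phase response and regeneration, was not called after BDL on any diet. In ENT livers its lowest, median and highest values were 68.6, 120 and 162 CPM after sham surgery and 62.3, 86.6 and 177 CPM after BDL. In SLE livers they were 67.7, 102 and 146 CPM after sham surgery and 79.5, 125 and 271 CPM after BDL. In MLE livers they were 67.5, 94.4 and 202 CPM after sham surgery and 90.7, 118 and 168 CPM after BDL. The spread within each group was wide and all 3 pairs of groups overlapped. BDL against sham gave log2 fold changes of −0.26 on ENT (95% interval −0.61 to 0.08), 0.30 on SLE (−0.05 to 0.65) and 0.18 on MLE (−0.21 to 0.57), and 9 of 10 ENT-BDL pigs were below the ENT-sham median. The difference between CEBPA and CEBPB was not tested.

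CEBPB was called in 1 contrast, SLE-BDL against ENT-BDL, at a log2 fold change of 0.51 (SE 0.176, edgeR adjusted p = 0.0326). Of 11 SLE-BDL pigs, 10 were above the ENT-BDL median and 1, replicate 9 with 271 CPM, was above every ENT-BDL pig. Without that pig the log2 fold change was 0.35 and the adjusted p 0.137, and without the matching ENT libraries the adjusted p was 0.0551, in a range of 0.00402 to 0.137 over the alternatives. Set against CEBPA per length, CEBPB was the more abundant of the pair in every pig, which depends on its coding-only gene length. The log2 ratio of their TPM averaged 1.39 ± 0.695 in ENT-sham (n = 12), 1.76 ± 0.662 in ENT-BDL (n = 10) and 1.33 ± 0.397 in SLE-sham (n = 10). It averaged 1.66 ± 0.654 in SLE-BDL (n = 11), 1.01 ± 0.464 in MLE-sham (n = 9) and 1.51 ± 0.370 in MLE-BDL (n = 8). These ratios were not tested.

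FOXA3, the forkhead factor of the adult liver and gut that acts on glucose and lipid genes, was the member that differed most with the diet. Its lowest, median and highest values were 27.7, 42.2 and 95.4 CPM in ENT-sham livers, 64.8, 88.1 and 97.5 CPM in SLE-sham livers, and 72.4, 91.8 and 115 CPM in MLE-sham livers. Every SLE-sham and MLE-sham pig was above the ENT-sham median. The same 4 ENT-sham pigs that were high in CEBPA were also the highest in FOXA3, at 68.8 to 95.4 CPM against 27.7 to 45.4 CPM in the other 8, and they alone overlapped the parenteral groups. FOXA3 was 1.60-fold higher in SLE-sham (log2 0.68, SE 0.141, edgeR adjusted p = 0.000166) and 1.77-fold higher in MLE-sham pigs (log2 0.82, SE 0.144, edgeR adjusted p = 1.69e-05).

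**Figure D3:**
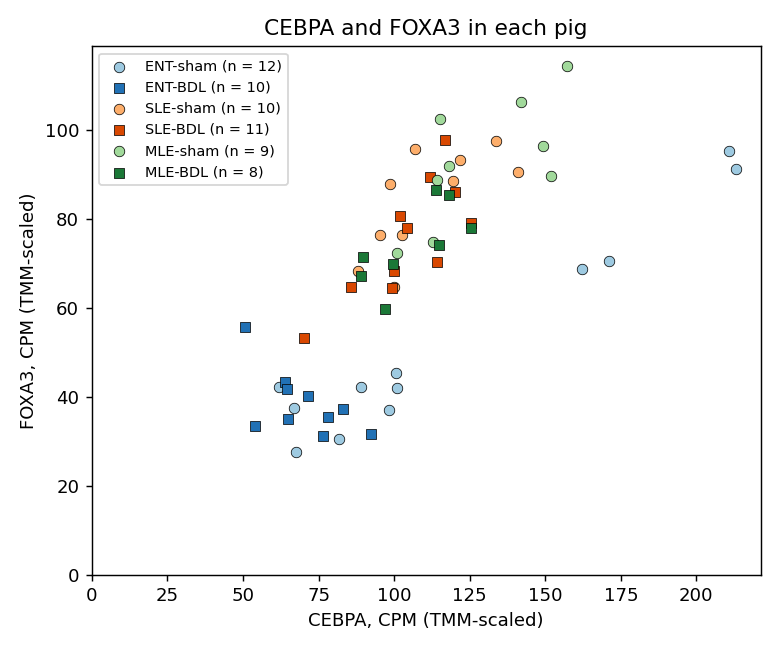
Each point is 1 pig, with CEBPA on the horizontal and FOXA3 on the vertical axis, both in TMM-scaled CPM; circles are sham and squares BDL pigs. Of the 12 ENT-sham pigs, 4 lie apart at 162 to 213 for CEBPA and 68.8 to 95.4 for FOXA3. The ENT-BDL pigs lie at the lower left, as do the other ENT-sham pigs.

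After ligation FOXA3 was again higher on parenteral nutrition, and its interaction of surgery and diet was not called (edgeR adjusted p = 0.536 for SLE and 0.926 for MLE against ENT). It had a lowest value of 31.3, a median of 36.3 and a highest of 55.6 CPM in ENT-BDL livers, 53.2, 77.9 and 97.7 CPM in SLE-BDL livers, and 59.8, 72.8 and 86.5 CPM in MLE-BDL livers. Of 11 SLE-BDL pigs, 10 were above every ENT-BDL pig, and the MLE-BDL and ENT-BDL groups did not overlap. FOXA3 was 1.96-fold higher in SLE-BDL (log2 0.97, SE 0.146, edgeR adjusted p = 1.47e-06) and 1.92-fold higher in MLE-BDL pigs (log2 0.94, SE 0.156, edgeR adjusted p = 1.13e-05). Within ENT, FOXA3 fell by 0.45 on the log2 scale after BDL (SE 0.143, edgeR adjusted p = 0.0214), with 8 of 10 ligated pigs below the sham median. That call was lost when edgeR was fitted on the ENT pigs alone (adjusted p = 0.125, in a range of 0.00812 to 0.125 over the alternatives). It was also lost without ENT-sham replicate 7 (0.0723) or replicate 10 (0.0688), which are among the 4 high pigs. The other 8 ENT-sham pigs had 27.7 to 45.45 CPM, none above the highest ENT-BDL pig. The difference without all 4 high pigs was not tested.

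FOXA1, a pioneer factor needed with FOXA2 for the start of liver development, was also lower after BDL on ENT and higher in 3 of 4 contrasts of parenteral with enteral feeding. Its lowest, median and highest values were 35.99, 39.3 and 51.6 CPM in ENT-sham livers and 27.6, 34.4 and 41.2 CPM in ENT-BDL livers. It fell by 0.29 on the log2 scale after BDL on ENT (SE 0.0840, edgeR adjusted p = 0.0104), and 6 of 10 ENT-BDL pigs were below every sham pig. With library totals in place of TMM that difference was −0.18 and not called (edgeR adjusted p = 0.172). Over the alternatives its adjusted p ran from 0.00455 to 0.172. MLE-BDL livers had 45.02, 46.7 and 51.3 CPM and did not overlap ENT-BDL livers, with a log2 fold change of 0.47 (SE 0.0922, edgeR adjusted p = 0.000145). FOXA1 also rose in MLE-sham against ENT-sham (log2 0.38, SE 0.0855, edgeR adjusted p = 0.000615) and in SLE-BDL against ENT-BDL (log2 0.31, SE 0.0856, edgeR adjusted p = 0.00716). The SLE-BDL call was lost with edgeR on the 2 groups alone (adjusted p = 0.0660) and with library totals in place of TMM (0.0755), in a range of 0.000840 to 0.0755 over the alternatives. In SLE-sham against ENT-sham it was at 0.20 on the log2 scale and was not called (edgeR adjusted p = 0.0633), but it was with library totals (0.0498, in a range of 0.0305 to 0.169 over the alternatives).

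FOXA2, known in the adult liver for bile acid transport and the fasting response, was called in a single contrast, BDL against sham on ENT. ENT-sham livers had a lowest value of 19.6, a median of 31.5 and a highest of 47.3 CPM, and ENT-BDL livers 20.9, 24.1 and 30.0 CPM. The lowest sham pig was below every ligated pig, yet all 10 ligated pigs were below the sham median. FOXA2 fell by 0.44 on the log2 scale (SE 0.117, edgeR adjusted p = 0.00508). The 4 parenteral groups had medians of 24.6 to 28.6 CPM, and the interaction with diet was not called for SLE (edgeR adjusted p = 0.383) or MLE (0.838).

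PROX1, a homeodomain factor needed for hepatoblast migration and for the hepatocyte over the bile duct fate, was lower on parenteral nutrition. Its lowest, median and highest values were 152, 170 and 247 CPM in ENT-sham, 109, 121 and 158 CPM in SLE-sham, and 91.1, 124 and 148 CPM in MLE-sham livers. Of 10 SLE-sham pigs 9 were below every ENT-sham pig, and MLE-sham and ENT-sham pigs did not overlap. The log2 fold change was −0.57 in SLE-sham (SE 0.0980, edgeR adjusted p = 6.36e-06) and −0.59 in MLE-sham pigs (SE 0.101, edgeR adjusted p = 1.05e-05). After ligation it was −0.33 in SLE-BDL (SE 0.0990, edgeR adjusted p = 0.0131) and −0.51 in MLE-BDL pigs (SE 0.109, edgeR adjusted p = 0.000435). The SLE-BDL call was lost when edgeR was fitted on those 2 groups alone (adjusted p = 0.0571, in a range of 0.00236 to 0.0571 over the alternatives).

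Within ENT, PROX1 had a lowest value of 111, a median of 149 and a highest of 187 CPM after ligation and fell by 0.30 on the log2 scale (SE 0.0974, edgeR adjusted p = 0.0239). This call was lost without ENT-BDL replicate 2 (adjusted p = 0.0636) or ENT-sham replicate 6 (0.0657), and over the alternatives its adjusted p ran from 0.00958 to 0.135. The antisense partner of PROX1, LOC106507881, did not have the same pattern. It was not called in either sham contrast with ENT (log2 −0.01 and 0.11) or after BDL on ENT (0.09), and it fell by 0.39 after BDL on SLE (edgeR adjusted p = 0.0352) and by 0.50 on MLE (0.00430). It was lower in SLE-BDL and MLE-BDL than in ENT-BDL livers, at −0.48 in both, so the share of the PROX1 difference that its reads carry was not tested there.

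ONECUT1, needed for orderly bile duct development and active on glucose and bile acid genes in hepatocytes, was slightly lower in 3 of 4 contrasts of parenteral with enteral feeding. Its lowest, median and highest values were 221, 284 and 326 CPM in ENT-sham, 185, 235 and 289 CPM in SLE-sham, and 169, 244 and 275 CPM in MLE-sham livers. The groups overlapped, with 9 of 10 SLE-sham and 9 of 9 MLE-sham pigs below the ENT-sham median. The log2 fold change was −0.23 in SLE-sham (SE 0.0874, edgeR adjusted p = 0.0372) and −0.25 in MLE-sham pigs (SE 0.0902, edgeR adjusted p = 0.0400). Both calls were lost without a filter on low counts (adjusted p = 0.0532 and 0.0608), in ranges over the alternatives of 0.0110 to 0.132 on SLE and 0.0113 to 0.112 on MLE. The difference of MLE-BDL from ENT-BDL livers was −0.34 (SE 0.0971, edgeR adjusted p = 0.0109), with all 8 MLE-BDL pigs below the ENT-BDL median, and was not called with library totals (adjusted p = 0.0794, in a range of 0.00428 to 0.0794 over the alternatives). In SLE-BDL against ENT-BDL it was −0.18 and not called (edgeR adjusted p = 0.139).

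NR5A2 (LRH-1), a nuclear receptor that acts with NR0B2 on bile acid synthesis genes, was lower after BDL on ENT and on MLE. In ENT livers its lowest, median and highest values were 53.6, 79.1 and 91.2 CPM after sham surgery and 46.9, 62.4 and 78.2 CPM after BDL. In MLE livers they were 71.6, 76.9 and 86.4 CPM after sham surgery and 48.4, 59.9 and 68.6 CPM after BDL, with no overlap. All 10 ENT-BDL pigs were below the ENT-sham median, and the lowest ENT-sham value belongs to replicate 2, one of the matching pair. NR5A2 fell by 0.27 on the log2 scale on ENT (SE 0.0795, edgeR adjusted p = 0.0121) and by 0.38 on MLE (SE 0.0903, edgeR adjusted p = 0.00190). With library totals in place of TMM it was at −0.17 on both diets. Neither fall was then called (edgeR adjusted p = 0.0744 on ENT and 0.0891 on MLE). In SLE livers the medians were 67.3 CPM after sham surgery and 62.6 CPM after BDL and the difference was not called, while the interaction was not called either (edgeR adjusted p = 0.703 for SLE against ENT and 0.546 for MLE against SLE). No diet contrast called NR5A2.

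HNF4A, the nuclear receptor that binds a large share of active liver genes, was called in none of the 12 comparisons. Over the 60 pigs its values ran from 229 to 474 CPM, with medians after sham surgery of 299 on ENT, 302 on SLE and 285 on MLE, and after BDL of 290, 311 and 283. All groups overlapped, and the highest values were 2 SLE-BDL pigs with 436 and 474 CPM. BDL against sham gave log2 fold changes of −0.07 on ENT (95% interval −0.24 to 0.09), 0.11 on SLE (−0.06 to 0.28) and −0.04 on MLE (−0.23 to 0.16). Differences within these bounds remain possible. The diet contrasts ranged from −0.23 for MLE-BDL against SLE-BDL to 0.19 for SLE-BDL against ENT-BDL on the log2 scale. The antisense partner LOC102159476 was higher in SLE-sham and MLE-sham than in ENT-sham livers (log2 0.59 and 0.71), where HNF4A was at 0.01 and −0.08. It fell by 0.69 after BDL on MLE (edgeR adjusted p = 0.0385), where HNF4A was at −0.04.

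How the counts are scaled matters for differences of this size. With library totals in place of TMM factors, an alternative chosen after seeing the data, the median of all genes moved to 0.11 in BDL against sham on ENT and to 0.22 on MLE. On that scale 3109 of all genes were called on ENT and 5084 on MLE, against 2823 and 2339 with TMM. Of the 6 members called lower after BDL on ENT 2, FOXA2 and CEBPA, were still called, and NR5A2 on MLE was not (adjusted p = 0.0891, in a range of 0.000466 to 0.0891 over the alternatives). The falls given here are thus relative to the bulk of the transcriptome, whose median difference TMM holds near 0. No called member changed direction, and with library totals FOXA3 and PROX1 remained called in all 4 contrasts of parenteral with enteral feeding.

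How the members vary among pigs of a group was taken from log2 CPM after subtracting group means, over 36 pairs of members and with Benjamini-Hochberg adjustment over the pairs. Of these, 6 pairs had a called Pearson correlation, all positive. By Spearman's rho 3 did: FOXA3 with CEBPA, FOXA3 with FOXA1, and HNF4A with CEBPA, the last not among the 6 (rho 0.419, permutation p = 0.00263, adjusted 0.0316; r 0.270, permutation p = 0.0929, adjusted 0.338). FOXA3, CEBPA and FOXA1 account for 3 of the pairs, and since the ENT-sham pigs fall into separate sets for these genes, no pooled coefficient is given for them. PROX1 was in the other 3: with HNF4A, r was 0.434 (permutation p = 0.00287, adjusted 0.0297) and rho 0.364 (p = 0.00836, adjusted 0.0719). With ONECUT1, r was 0.399 (permutation p = 0.00413, adjusted 0.0297) and rho 0.354 (p = 0.00999, adjusted 0.0719). With NR5A2, r was 0.393 (permutation p = 0.00339, adjusted 0.0297) and rho 0.272 (p = 0.0469, adjusted 0.241). Leaving out the 2 pigs farthest from the median of the first gene gave 0.331, 0.299 and 0.303. Within single groups r ran from −0.313 to 0.693 with HNF4A, from −0.212 to 0.719 with ONECUT1 and from −0.643 to 0.852 with NR5A2, and it was positive in 4, 5 and 5 of 6 groups. Without the matching ENT libraries 3 of 36 pairs were called. Without all ENT-sham pigs, an alternative chosen after seeing the data, 0 of 36 were called over fewer pigs, while r of PROX1 with HNF4A, ONECUT1 and NR5A2 was 0.367, 0.419 and 0.428.

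The genes whose log2 CPM over the 60 libraries was most like each member are given as a description, with group differences included and no test. For FOXA3 these were PPP1R3B (Pearson r 0.889), KLHL25 (0.862) and PPP1R3C (0.857), of which PPP1R3B and PPP1R3C encode subunits that target protein phosphatase 1 to glycogen. FOXA1 had MAST3 (0.849), C7H15orf39 (0.802) and again PPP1R3B (0.788). For CEBPA they were CXXC5 (0.813), ZBTB7B (0.781) and ANKRD9 (0.771), and for CEBPB the kinase gene SIK1 (0.733), NOCT (0.711) and TP53INP2 (0.689). NR5A2 was most like VNN3 (0.836), CD302 (0.761) and OSBPL9 (0.747). PROX1 was most like TOR1AIP2 (0.807), UGP2 (0.798), which encodes the enzyme that makes UDP-glucose, and TRIP12 (0.788). ONECUT1 had VPS13D (0.731), PRKAG2 (0.730), a subunit of AMP-activated kinase, and DST (0.725). The lowest coefficients were those of HNF4A, with LNX2 (0.646), ZGPAT (0.607) and PSMD3 (0.595), and of FOXA2, with C6H16orf70 (0.560), FAM174A (0.537) and ASB4 (0.524).

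Other factors of the hepatocyte network, 30 genes of which 29 were tested, were called lower more often than higher after BDL. Those called made up 58.6% on ENT, 17.2% on SLE and 51.7% on MLE, against 17.4%, 4.54% and 14.4% of all genes. On ENT 1 was called higher and 16 lower, with a median log2 fold change of −0.27 where the median of all genes was 0.01. HLF and DBP, circadian PAR-domain factors, fell by 0.96 (SE 0.140, edgeR adjusted p = 1.28e-06) and 1.13 (SE 0.213, edgeR adjusted p = 0.000101). On SLE 1 was higher and 4 lower, and on MLE 2 were higher and 13 lower, with medians of −0.14 and −0.34. HLF fell by 1.27 on MLE (SE 0.160, edgeR adjusted p = 2e-07), and ATF5, an abundant liver factor of the ATF family, fell on all 3 diets, by 0.81, 0.62 and 0.79. In the interactions with diet edgeR called 0 of the 29, with 5, 1 and 5 at an unadjusted p under 0.05 for SLE against ENT, MLE against ENT and MLE against SLE, and DESeq2 called 0, 0 and 1.

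On parenteral nutrition the network moved in both directions. SLE-sham against ENT-sham called 3 genes higher and 14 lower, and MLE-sham against ENT-sham 3 higher and 7 lower, with medians of −0.19 and −0.12. These are 58.6% and 34.5% of the 29, against 27.5% and 21.1% of all genes. NR1I3 (CAR), a receptor that controls drug and bile acid clearance, fell by 1.35 in SLE-sham (SE 0.241, edgeR adjusted p = 1.39e-05) and by 1.41 in MLE-sham pigs (SE 0.251, edgeR adjusted p = 2.48e-05). Among ligated pigs 4 were higher and 4 lower on SLE, and 4 higher and 6 lower on MLE (27.6% and 34.5%, against 19.6% and 16.8% of all genes). With the identifier block SLE-sham had 2 higher and 12 lower and MLE-sham 1 higher and 8 lower. SLE-BDL then had 5 higher and 4 lower and MLE-BDL 2 higher and 7 lower. NR0B2 (SHP), the repressor induced by the bile acid receptor, was 1.83-fold higher in SLE-BDL than in ENT-BDL pigs (log2 0.87, SE 0.159, edgeR adjusted p = 4.54e-05). Between the emulsions 1 gene, HLF, was higher in MLE-sham than in SLE-sham pigs. Among ligated pigs edgeR called 0, with 8 at an unadjusted p under 0.05 and 1 called by DESeq2.

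Of 28 genes reported as targets of these factors, 27 were tested, since 1 symbol is not in the table. After BDL, 7 were higher and 8 lower on ENT, 2 higher and 0 lower on SLE, and 2 higher and 13 lower on MLE (55.6%, 7.41% and 55.6% of the 27, against 17.4%, 4.54% and 14.4% of all genes). The median log2 fold changes were −0.15, −0.03 and −0.44. On SLE 1 was higher and 1 lower with the identifier block, and 3 higher and 1 lower without the matching ENT libraries. IGFBP1, called higher on SLE (edgeR adjusted p = 0.0171), was not called with that block (0.167). CYP7A1, the rate-limiting enzyme of bile acid synthesis, rose on all 3 diets. It went from a mean of 12.2 to 70.1 CPM on ENT (log2 2.52, SE 0.535, edgeR adjusted p = 0.000510), from 0.833 to 9.51 CPM on SLE (log2 3.51, SE 0.687, edgeR adjusted p = 0.00155) and from 0.503 to 3.52 CPM on MLE (log2 2.85, SE 0.834, edgeR adjusted p = 0.0140). The MLE levels are a few CPM and carry the widest error. ABCG5, which moves sterols into bile, rose by 0.88 on ENT (SE 0.127, edgeR adjusted p = 1.17e-06), and its interaction was called for SLE against ENT (−1.27, SE 0.181, edgeR adjusted p = 2.42e-05). APOC3 fell by 0.83 on MLE (SE 0.161, edgeR adjusted p = 0.000172).

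In each of the 4 contrasts of parenteral with enteral feeding more targets were called lower than higher. SLE-sham against ENT-sham called 4 higher and 13 lower, and MLE-sham against ENT-sham 4 higher and 9 lower (63.0% and 48.1% of the 27, against 27.5% and 21.1% of all genes). IGFBP1, a fasting-induced gene, went from a mean of 585 CPM in ENT-sham to 32.5 CPM in SLE-sham (log2 −4.17, SE 0.493, edgeR adjusted p = 2.37e-09) and 40.1 CPM in MLE-sham pigs (log2 −3.87, SE 0.508, edgeR adjusted p = 7.06e-08). TDO2, which degrades tryptophan, fell by 1.37 in SLE-sham (SE 0.120, edgeR adjusted p = 3.16e-13). Among ligated pigs 2 were higher and 5 lower on SLE, and 0 higher and 10 lower on MLE (25.9% and 37.0%, against 19.6% and 16.8% of all genes). Between the emulsions 1 was lower in MLE-sham (ABCG5) and 1 in MLE-BDL pigs (APOC3). With the identifier block neither was called (adjusted p = 0.205 and 0.0543, against 0.0327 and 0.0106 without the matching ENT libraries), and 3 targets were called higher in MLE-sham pigs. In the interactions 1 was higher and 1 lower for SLE against ENT, and 1 lower for MLE against ENT. For MLE against SLE edgeR called 0, with 12 at an unadjusted p under 0.05 and 3 called by DESeq2.

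In bulk liver a lower level of a hepatocyte factor can come from fewer hepatocytes or from less RNA per hepatocyte, and these cannot be told apart. Markers of cell types moved with the groups, and their part in the results was not tested. Of 14 hepatocyte markers, BDL called 1 higher and 7 lower on ENT and 11 lower on MLE. These are 57.1% and 78.6% of the 14, against 17.4% and 14.4% of all genes. On SLE edgeR and DESeq2 called 0, with 5 at an unadjusted p under 0.05. Their summed level went from a mean of 169700 to 140600 CPM on ENT, from 162300 to 152200 CPM on SLE and from 187900 to 126900 CPM on MLE. Of 12 cholangiocyte markers tested, 8 rose on ENT, 2 on SLE and 9 on MLE and 0 fell. The shares called were 66.7%, 16.7% and 75.0%, against 17.4%, 4.54% and 14.4% of all genes. On SLE 9 had an unadjusted p under 0.05, and 6 were called higher both without the matching ENT libraries and with the identifier block. Their sum went from 224 to 527 CPM on ENT, from 368 to 497 CPM on SLE and from 258 to 491 CPM on MLE. The ENT-sham mean includes replicate 2 at 783 CPM, where the other 11 pigs had a median of 166 CPM. The gene named as leading a list is the one with the highest mean over all 60 pigs, here CLDN4, although MMP7 (110 CPM) and SPP1 (88.6 CPM) exceeded CLDN4 (86.5 CPM) in ENT-BDL livers.

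The diet contrasts with ENT also called markers. Of the hepatocyte markers, 1 was higher and 5 lower in SLE-sham, and 2 higher and 3 lower in MLE-sham pigs. In SLE-BDL 2 were higher and 2 lower, and in MLE-BDL pigs 2 were lower. These are 42.9%, 35.7%, 28.6% and 14.3% of the 14, against 27.5%, 21.1%, 19.6% and 16.8% of all genes. With the identifier block SLE-sham had 2 higher and 5 lower, and MLE-sham 4 higher and 2 lower. SLE-BDL then had 1 higher and 2 lower, and MLE-BDL 3 lower. Without the matching ENT libraries MLE-sham had 2 higher and 4 lower and MLE-BDL 5 lower. Of the cholangiocyte markers, 3 were higher in SLE-sham, 2 in MLE-sham, 1 in SLE-BDL and 2 in MLE-BDL pigs, each a smaller share of the 12 than that of all genes. Without the matching ENT libraries the sham contrasts called 6 and 4 higher. SLE-BDL then had 1 higher and 2 lower, and MLE-BDL 2 higher and 1 lower. The 3 called in SLE-sham with all pigs were SPP1 (log2 2.51, SE 0.285), KRT19 (1.27, SE 0.253) and CLDN4 (0.74, SE 0.144).

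Except for erythroid markers, other cell types are described mainly for BDL against sham, and the same limit holds for them. Against ENT-sham, SLE-sham called 2 Kupffer and 1 neutrophil marker higher, and 1 Kupffer, 1 stellate and 1 endothelial marker lower. MLE-sham called 1 Kupffer marker lower. Against ENT-BDL, SLE-BDL called 2 of 4 lymphocyte markers, 1 Kupffer and 1 stellate marker and 1 proliferation gene lower. MLE-BDL called 1 endothelial and 1 lymphocyte marker lower. MLE-BDL against SLE-BDL called 1 stellate marker lower. In these contrasts 27.5%, 21.1%, 19.6%, 16.8% and 0.907% of all genes were called, in that order. Some counts changed with the identifier block. Of 10 Kupffer cell markers, led by CD14, BDL called 1 higher on each diet and 3, 1 and 4 lower on ENT, SLE and MLE, and group means of their sum lay between 1549 and 2504 CPM. Of 9 stellate cell markers, led by COL3A1, 1 was higher and 1 lower on ENT, 2 higher on SLE, and 3 higher and 1 lower on MLE. The stellate shares were 22.2%, 22.2% and 44.4%, against 17.4%, 4.54% and 14.4% of all genes. The stellate sum went from 1496 to 2465 CPM on ENT, from 1922 to 2855 CPM on SLE and from 1630 to 3468 CPM on MLE. The ENT-sham mean includes replicate 2 at 3490 CPM, where the other 11 pigs had a median of 1240 CPM. Of 6 endothelial markers, led by STAB2, 2 were lower on ENT and 1 on MLE (33.3% and 16.7%, against 17.4% and 14.4% of all genes). On SLE both tools called 0 and 1 had an unadjusted p under 0.05. The group means of the endothelial sum were 621 to 808 CPM.

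Lymphocyte and neutrophil markers were near the lower end of detection. Of 4 lymphocyte markers tested, led by JCHAIN, edgeR and DESeq2 called 0 on each diet, with 0, 3 and 0 at an unadjusted p under 0.05 on ENT, SLE and MLE, and group means of the sum, over 5 genes with the untested MS4A1 included, were 3.89 to 7.64 CPM. Of 4 neutrophil markers, led by CSF3R, 1 was higher on ENT and 1 on MLE, and on SLE both tools called 0 with 3 at an unadjusted p under 0.05. Group means of the neutrophil sum were 6.65 to 21.3 CPM, and S100A8, S100A9 and S100A12 were each at 0 in some sham pig. Of 5 proliferation genes, 3 rose after BDL on ENT, CCNB1 by 0.58 (SE 0.195), MKI67 by 0.47 (SE 0.164) and TOP2A by 0.44 (SE 0.141) on the log2 scale. On SLE and MLE both tools called 0 of them, with 0 and 4 at an unadjusted p under 0.05.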

How the data were processed

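Liver poly-A RNA was sequenced in 60 libraries, none pooled. Each is counted as 1 pig, although 2 SLE-sham libraries share a pig code in the labels, and that each is a separate liver was not tested. Per the labels, the authors used HISAT2 2.0.5, StringTie 1.3.3 and featureCounts 1.5.0-p3 with Sscrofa11.1, and they deposited raw read counts per gene. The paper also names trimming with fastp. The kit does not mark strand, and the strand setting of the counting is not stated. The file gives 30359 features, of which 24 have no name and hold 0.0084% to 0.0407% of the counts. Totals per pig were 14469788 to 21374161 counts. The authors' gene lengths were used for TPM.

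From the counts, 16210 genes passed edgeR's filterByExpr and were fitted with edgeR 4.0.16 in R 4.3.3, with TMM factors, robust quasi-likelihood dispersion and 1 mean per group. In all, 12 comparisons were made: surgery within every diet, every 2 diets within sham or ligated pigs, and 3 interactions of both. P-values are two-sided and adjusted over all genes tested. DESeq2 1.42.0 was an alternative. CPM values are TMM-scaled, and log2 CPM uses a prior count of 2. Both tools were tested on simulated counts with known fold changes, which were larger than those of any called member. That test does not cover differences as small as those of the members. Correlations used 100000 permutations of pigs within groups, whose smallest possible p is 1e-05. Intervals are 95% confidence intervals of the fit.

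The 9 members and all gene lists were chosen with earlier results of these data known, so no count over them is independent support. The named-gene rule covers all 9 members in every comparison, of which those not called are given as counts or ranges. From each list, genes named are among the 4 called with the largest fold change in a comparison. The genes most like a member are the 3 with the highest Pearson correlation among named genes averaging 2 or more in log2 CPM. The lists are other hepatocyte network factors, reported targets, fetal liver genes, markers of hepatocytes, cholangiocytes, Kupffer, stellate, endothelial, lymphocyte, neutrophil and erythroid cells, proliferation genes, and all genes with a transcription factor family. Targets and hepatocyte markers share genes such as ALB, APOA1 and TF. Alternatives changed the tool, the pigs in the fit, the normalization, the filter, the fold threshold and the blocks. Library totals in place of TMM, the identifier block without the matching libraries, and correlations without ENT-sham pigs were added after seeing the data. Pig labels hold an identifier number with 8 values whose meaning is not given; MLE pigs carry only some of these. No protein or promoter sequences were at hand.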

Additional observations from a re-analysis of the deposited data

Results flagged for a closer look

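In 36 groups of values of the members, those of 4 to 10 pigs, 4 had a highest pig whose gap to its neighbour was large against the range of its group, where chance gives about 5% of groups. FOXA3 in ENT-BDL replicate 2 was at 55.6 CPM, with the next pig at 43.3 CPM. CEBPB in the same pig was at 177 CPM, with the next at 111 CPM. CEBPB in MLE-sham replicate 2 was at 202 CPM, with the next at 120 CPM. PROX1 in MLE-BDL replicate 6 was at 126 CPM, with the next at 109 CPM. Groups of more than 10 pigs were not checked, among them ENT-sham, with its 4 high pigs for CEBPA and FOXA3, and SLE-BDL.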

How the results depend on the processing

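Of the 24 called member tests, all kept their call and direction with DESeq2, RLE size factors, at least 10 counts in every pig, and the identifier block; 23 did so without both matching ENT libraries, 20 with edgeR on the groups compared, 21 without a filter and 15 with library totals. No called test changed direction in any of these. A required fold above 2 left 0 members called where 6 (BDL on ENT), 1 (BDL on MLE), 3 and 4 (SLE-sham and MLE-sham against ENT-sham), and 5 and 5 (SLE-BDL and MLE-BDL against ENT-BDL) were called without it. Library totals, added after seeing the data, gave 2 on ENT and 0 on MLE for BDL against sham and 3 for SLE-BDL against ENT-BDL, where 3109, 5084 and 2900 of all genes were called, against 2823, 2339 and 3176 with TMM. In SLE-sham against ENT-sham they gained FOXA1 and lost ONECUT1. With library totals the median of all genes was 0.109 (BDL on ENT), 0.215 (BDL on MLE) and 0.139 (MLE-BDL against SLE-BDL), and −0.0964, 0.115 and 0.213 in the interactions. EdgeR on the groups compared gave 4 for BDL on MLE, adding FOXA1, FOXA3 and CEBPA, and 2 for SLE-BDL against ENT-BDL, losing FOXA1, CEBPB and PROX1. The interaction of SLE against ENT had 1 member, CEBPA, with DESeq2 and without the matching libraries. The number of called correlations among members went from 6 to 3 with Spearman's rho, to 3 without the matching libraries and to 0 without ENT-sham pigs. Where pigs were left out there were fewer of them, and otherwise the cause was not tested.

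Among the differences whose values are given, those that reversed were uncalled on either side, and their cause was not tested. Uncalled differences whose values are not given reversed as well. With library totals HNF4A was at 0.0264 (BDL on ENT), 0.175 (BDL on MLE) and 0.0359 (MLE-BDL against ENT-BDL), FOXA1 at 0.0103 and ONECUT1 at 0.00993 (both BDL on MLE). HNF4A in SLE-sham against ENT-sham was at −0.0252 with the identifier block, −0.0207 without the matching libraries and −0.0342 with both, and −0.0231 to 0.0401 with each pig left out in turn.

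With each pig left out in turn, 19 of the 24 called tests kept their call in every fit and 5 did not. FOXA3 on ENT was lost without ENT-sham replicate 7 (adjusted p = 0.0723) or 10 (0.0688), and PROX1 on ENT without ENT-sham replicate 6 (0.0657) or ENT-BDL replicate 2 (0.0636). ONECUT1 in SLE-sham was lost in 10 of 22 fits (adjusted p up to 0.0841), those without ENT-sham replicate 1, 2, 4, 6 or 12 or SLE-sham replicate 3, 5, 7, 8 or 10. In MLE-sham it was lost in 10 of 21 (up to 0.108), without ENT-sham replicate 1, 2, 4, 6, 11 or 12 or MLE-sham replicate 2, 6, 7 or 9. CEBPB in SLE-BDL against ENT-BDL was lost without ENT-BDL replicate 1, 4, 5, 7, 8 or 10, or SLE-BDL replicate 5, 7 or 9 (up to 0.137). FOXA1 in SLE-sham was gained without ENT-sham replicate 3, 4 or 7 or SLE-sham replicate 4 or 10 (0.0305 to 0.0487), and in SLE-BDL HNF4A was gained without SLE-BDL replicate 2 (0.0355) and ONECUT1 without SLE-BDL replicate 7 (0.0391). The interaction of SLE against ENT had 0 to 1 members called, the 1 being CEBPA without ENT-sham replicate 2 (adjusted p = 0.0227). Counts of members called ran from 5 to 6 for BDL on ENT, 2 to 4 and 3 to 4 for SLE-sham and MLE-sham, and 4 to 6 for SLE-BDL against ENT.

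Replicate numbers do not pair the pigs: over 137 pairs with the same number in different groups, the correlation of deviations from group means was −0.306 to 0.366, with a median of −0.000539. With the replicate block PROX1 on ENT (−0.289, adjusted p = 0.0519) and ONECUT1 in SLE-sham (−0.214, 0.0946) and MLE-sham (−0.220, 0.112) were not called, so 5, 2 and 3 members were, and the replicate block changed no other member call. The depth gave every member at least 263 counts in each pig, which bounds the counting error only.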

Other observations

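Of 10 genes of the fetal liver, 9 were tested. Among these, BDL against sham called 5 higher and 1 lower on ENT, 1 lower on SLE, and 2 higher and 2 lower on MLE (66.7% on ENT and 44.4% on MLE, against 17.4% and 14.4% of all genes, and 1 of 9 on SLE, against 4.54%). AFP, the fetal counterpart of albumin, rose from a mean of 2610 to 5150 CPM on ENT (log2 0.98, SE 0.227, edgeR adjusted p = 0.00135), and SOX4 from 43.3 to 93.5 CPM (log2 1.11, SE 0.166, edgeR adjusted p = 2.57e-06). LIN28B, a blocker of let-7 maturation, fell on all 3 diets, by 1.43, 1.56 and 1.53 on the log2 scale. SLE-sham against ENT-sham called 4 higher and MLE-sham against ENT-sham 3 higher, and none lower (44.4% and 33.3%, against 27.5% and 21.1% of all genes). AFP was at 7010 CPM in SLE-sham and 6920 CPM in MLE-sham livers (log2 1.43 and 1.41), and PEG3, an imprinted gene, was 3.31-fold and 3.35-fold higher. Among ligated pigs 1 was higher and 1 lower on SLE and 2 were higher on MLE (22.2% in both, against 19.6% and 16.8% of all genes), of which on MLE AFP (edgeR adjusted p = 0.0337) was not called without the matching ENT libraries (0.0601, against 0.0180 with the identifier block). Between the emulsions edgeR called 0 in sham and in ligated pigs, with 1 and 2 at an unadjusted p under 0.05, and DESeq2 called 0 and 2. For SLE against ENT the interaction was called for PEG3 (−1.25, SE 0.246, edgeR adjusted p = 0.00220) and SOX4 (−0.87, SE 0.238, edgeR adjusted p = 0.0341), of which SOX4 missed the threshold with the identifier block (0.0505, against 0.000296 without the matching ENT libraries). The interactions of MLE with ENT and with SLE each had 0 called by both tools, with 2 at an unadjusted p under 0.05.

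Erythroid markers were 5 genes led by HBB. Their summed level had group means of 1202 CPM in ENT-sham and 1320 CPM in ENT-BDL, 456 and 622 CPM on SLE, and 558 and 265 CPM on MLE. HBB fell by 1.43 in SLE-sham (SE 0.336) and 1.12 in MLE-sham pigs (SE 0.345) against ENT-sham, the second not called with the identifier block (adjusted p = 0.126, against 0.00717 without the matching ENT libraries). SLE-BDL against ENT-BDL called 1 of 5 lower and MLE-BDL against ENT-BDL called 4 of 5 lower, HBB by 2.33 (SE 0.388, edgeR adjusted p = 1.41e-05). After BDL, 2 were lower on MLE, and on ENT and SLE both tools called 0 with 0 at an unadjusted p under 0.05. Between the emulsions edgeR called 0 in sham pigs, with 0 at an unadjusted p under 0.05 and 0 by DESeq2, and 0 in ligated pigs, with 5 and 3. The 3 interactions had 0 called by edgeR, with 0, 2 and 2 at an unadjusted p under 0.05 and 0, 0 and 1 by DESeq2 (SLE with ENT, MLE with ENT, MLE with SLE).

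In SLE-sham, replicates 9 and 10 carry the same identifier and letter in their labels. Their profiles differed by a chi-square of 37.0 per degree of freedom, against 1.97 for the matching ENT pair.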
